A study of Homo sapiens with 2 samples.

Results

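The genes described here encode the enzymes of the tricarboxylic acid (TCA) cycle and those that feed pyruvate, glutamate and malate into it or draw citrate from it. They were chosen by name, as 37 listed symbols, and all 37 were found with 1 row each among the 25277 rows (23614 distinct gene names) of the deposited gene tables. RNA sequencing of polyadenylated RNA was done on HEK293 cells, a human embryonic kidney line, in a wild-type (WT) and a PERK-KO sample, with 1 sample per genotype. Both samples came from cells moved to glucose-free medium with galactose and pyruvate, in which ATP has to come mainly from oxidative phosphorylation (OXPHOS), so the comparison asks how the genotypes differ in that state and not how the medium acts. PERK-KO cells were made with CRISPR/Cas9 and seeded as single cells, so that they represent a clone. The number of clones or guides behind the sequenced sample is not given in the sources used here. With 1 sample per genotype no difference has a replicate error, and none could be tested.

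PERK is a kinase of the ER membrane that phosphorylates eIF2α during ER stress, which favours translation of the transcription factor ATF4. The TCA cycle oxidises acetyl-CoA in the mitochondrial matrix and passes electrons to the respiratory chain. Acetyl-CoA is made from pyruvate by the pyruvate dehydrogenase (PDH) complex, which is switched off by kinases and on by phosphatases. Carboxylation of pyruvate and the conversion of glutamate to 2-oxoglutarate refill the cycle, and cytosolic forms of several of the enzymes exchange malate, aspartate, citrate and reducing equivalents with the matrix. In cells kept without glucose, glutamine is known as a main carbon source for the cycle.

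Values are FPKM, fragments scaled to transcript length and to the mapped total, with the lower and upper confidence limits deposited beside them, given here in parentheses. The total number of reads is not in the files. The limits express the precision within 1 library, not the variation between cultures, and over the members they lay a median of 6.50% on either side of the value in WT and 6.43% in PERK-KO cells. EIF2AK3, which encodes PERK, had an FPKM of 5.61 (5.11 to 6.12) in WT and 3.89 (3.44 to 4.34) in PERK-KO cells with separate limits, so the transcript was still present in PERK-KO cells. A transcript level does not show whether the protein is lost. The genotypes also differed in genes used to recognise the line. IRS4, an insulin receptor substrate known for its abundance in HEK293 cells, had 0.121 (0.0404 to 0.202) in WT and 27.1 (25.8 to 28.4) in PERK-KO cells. The neurofilament genes NEFM and INA had 0.662 and 0.458 in WT and 5.21 and 4.13 in PERK-KO cells, LIN28B had 4.16 and 7.05, and PAX2 had 0.981 and 0.748. Thus 3 of the 5 HEK293 markers were below 1 FPKM only in WT cells. Markers of hepatocytes, leukocytes, brown adipocytes and proximal tubule were all below 1 FPKM in both samples, with ALB, UCP1, CIDEA and SLC34A1 listed at 0. Of the fibroblast markers, COL1A1 had 4.97 and 4.62, and DCN and LUM were below 1. Whether the 2 samples carry the right labels was not tested, and an exchange would invert every ratio given here. EIF2AK3 was lower in the library labelled PERK-KO, but 18.7% of all rows at 1 FPKM or more were lower with separate limits. It therefore cannot settle the labels. The part of the difference in line markers in the results below was not tested, and it cannot be told apart from the genotype.

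Most transcripts of the TCA cycle and its entry enzymes differed by less than 1.3-fold between the genotypes, with the mitochondrial phosphoenolpyruvate carboxykinase gene PCK2 showing the largest ratio with separate limits. Of the 37 members, 36 reached 1 FPKM in one or both samples, the level below which no ratio was counted, and only ME3 did not. Among those 36, 24 were higher and 12 lower in PERK-KO cells. Of all 14594 rows above that level, 7827 were higher and 6767 lower. The median of the log2 ratio of PERK-KO to WT was 0.14 over the 36 members, compared with 0.04 over all those rows. A total of 28 members (77.8%) lay within 1.3-fold of the WT value, against 64.5% of all rows. Past 1.5-fold and higher in PERK-KO cells were 2 members, PCK2 and OGDHL (5.56% of the 36, where 10.1% of all rows were called). Only PDK4 was more than 1.5-fold lower (2.78%, where 7.54% of all rows were called), and its confidence limits overlapped (5.39% of all rows were lower with separate limits as well).

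Smaller differences were often wider than the confidence limits. In 14 of the 36 members (38.9%) the value was higher in PERK-KO cells with limits that did not overlap, which was the case for 26.1% of all rows, and in 4 members (11.1%) it was lower with separate limits, against 18.7% of all rows. The limits of the other 18 members overlapped. Narrow limits favour such calls, and the limits of all rows lay a median of 9.02% from the value in WT cells, wider than those of the members. Of all rows where either sample reached 5 FPKM, 30.1% were higher and 23.9% lower with separate limits. Of the 34 members at that level, 13 were higher and 4 lower. At 10 FPKM the shares of all rows were nearly even, at 29.7% and 28.9%. The 37 members had a median of 22.6 FPKM in WT cells, against 9.41 for all rows at 1 FPKM or more. The shares of 26.1% and 18.7% used below therefore come from a background of weaker genes. All of these counts describe 1 pair of libraries.

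**Figure D1:**
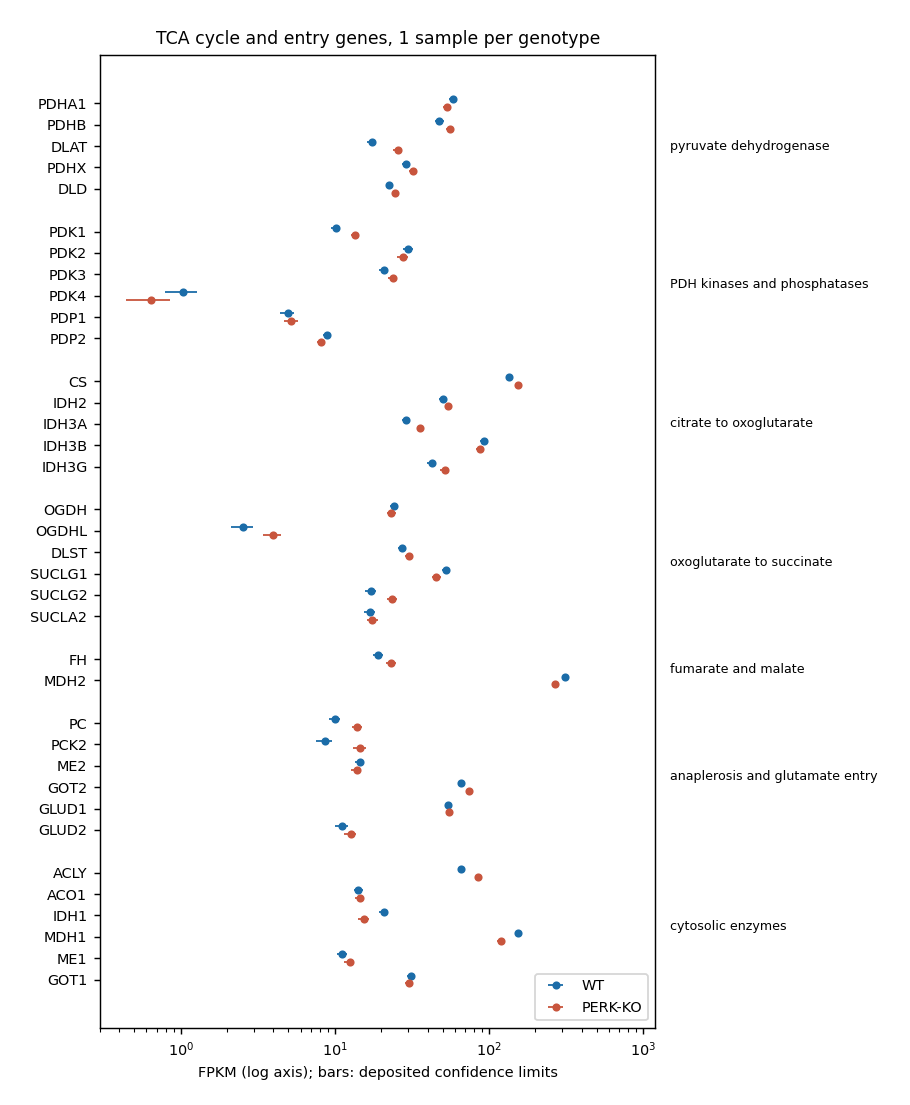
FPKM (log axis) of the 36 members at 1 FPKM or more in one or both samples, ordered by step, with WT in blue and PERK-KO in red; bars are the deposited confidence limits, and there is 1 sample per genotype. Most pairs of points lie close together, MDH2 is highest at 310.2 and 269.9, and PDK4 is lowest at 1.03 and 0.647.

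**Figure D2:**
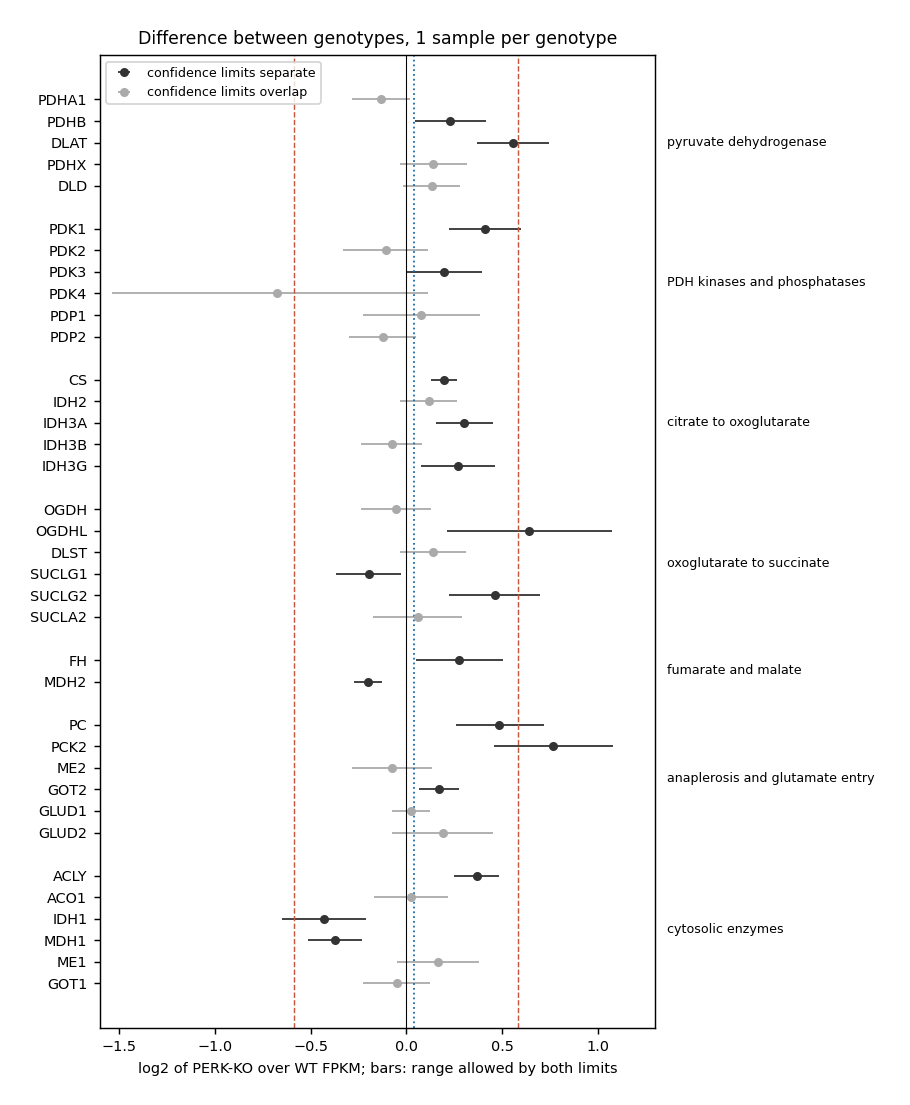
Log2 of the PERK-KO over the WT FPKM for the same 36 members; bars run from the smallest to the largest ratio that the limits of both samples allow, black marks separate limits and grey overlapping ones. Dashed lines mark a 1.5-fold difference and the dotted line the median of all rows (0.04); PCK2 (0.77) and OGDHL (0.64) lie right of the dashed line and only PDK4 (-0.68) lies left of it.

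Because the study linked PERK to the ETS-family factor GABPα, the 250 bases before the annotated start of each member were searched on both strands for CCGGAAG, a sequence built on the GGAA core that GABPα binds. RefSeq promoters were found for all members except OGDH and PDP1, and each of these 35 stretches had a single exact match near its gene in GRCh37. The RefSeq start can differ from that of the locus whose FPKM is given. In DLAT, IDH1, IDH2, MDH1 and PDHX the searched stretch lies wholly inside that locus. The bases before the locus were not searched in these genes, which limits all motif counts given here. CCGGAAG was present in 5 of the 35 (14.3%), DLST, IDH3B, IDH3G, MDH2 and ME2, and in 8.82% of the 27305 promoters of all genes. The 27305 promoters were not filtered by expression, whereas nearly all members were expressed, so the shares come from unlike sets. This holds for the other motifs below as well. Parts of the 5 member promoters are shown because they hold CCGGAAG, which was chosen here to stand for a GABPα site, with the motif or its complement in capitals. They are read 5′ to 3′ on the strand of the gene, and only short stretches are given where the motif lies inside the transcribed locus of the tables:
MDH2, chr7:75677264-75677364, plus strand: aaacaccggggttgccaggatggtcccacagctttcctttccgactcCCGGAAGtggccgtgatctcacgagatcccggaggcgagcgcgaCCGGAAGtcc
IDH3B, chr20:2644866-2644966, minus strand: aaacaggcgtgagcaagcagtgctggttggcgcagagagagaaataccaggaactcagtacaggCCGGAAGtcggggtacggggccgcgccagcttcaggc
IDH3G, chrX:153059905-153059933, minus strand: tgctctaggcgCCGGAAGggggcgtgaat
DLST, chr14:75348586-75348614, plus strand: ggcccgccccaCTTCCGGttgttgtccgg
ME2, chr18:48405435-48405463, plus strand: gtgggccacgcCTTCCGGgccccgcggct
MDH2 held the motif at 2 places. The 5 genes did not share a direction, as IDH3G was higher and MDH2 lower in PERK-KO cells with separate limits, while the limits of DLST, IDH3B and ME2 overlapped.

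The same stretches were searched for TTGCATCA, a form of the amino acid response element at which ATF4 acts. It was found only in GOT1, among the 35 members, and in 0.82% of all promoters. The stretch is shown because GOT1 was the member with this element, which is in capitals:
GOT1, chr10:101190531-101190631, minus strand: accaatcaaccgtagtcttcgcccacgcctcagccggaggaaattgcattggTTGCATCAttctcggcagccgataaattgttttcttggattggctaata
The broader pattern TGATGNAA, which includes the complement of TTGCATCA, was found in GOT1 alone as well (2.86% of the members, 3.19% of all promoters). The palindromic consensus sequence of NRF1 was in none of the 35 and in 1.13% of all promoters. TACGTGC, a form of the hypoxia response element, was found in PDK3 and in 0.729% of all promoters. A match is a description of letters and not of binding.

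Of the 5 genes of the PDH complex, 4 were higher in PERK-KO cells, where 7827 of all 14594 rows were higher. The limits were separate in DLAT and PDHB, and 26.1% of all rows were higher with separate limits. DLAT encodes the E2 acetyltransferase core, to which the other subunits attach. Its FPKM was 17.4 (16.3 to 18.6) in WT and 25.6 (24.0 to 27.2) in PERK-KO cells, giving a ratio of 1.47 with an allowed range of 1.29 to 1.67. The locus of DLAT (chromosome 11, 111895538 to 111935002) shares 269 bases with PIH1D2, which stood at 3.27 and 3.19 FPKM. PDHB, the β subunit of the E1 decarboxylase, had 47.8 (44.6 to 50.9) in WT and 56.0 (52.4 to 59.6) in PERK-KO cells. PDHA1, the α subunit that the kinases phosphorylate, was the lower one of the complex, with 58.4 (55.4 to 61.4) and 53.3 (50.5 to 56.2), and its limits overlapped. The last 1650 bases of the PDHA1 locus are shared with MAP3K15, which had 5.46 and 7.66 FPKM. PDHX, which tethers E3 to the core, had 29.1 (27.3 to 30.9) and 32.1 (30.1 to 34.0), and its locus overlaps those of MIR1343 and of APIP, the latter at 74.5 and 62.7 FPKM. DLD, the E3 dihydrolipoamide dehydrogenase that also serves the oxoglutarate complex, had 22.6 (21.4 to 23.7) and 24.7 (23.5 to 26.0). On the FPKM scale, which is per length, the lowest level in the complex was that of DLAT in WT cells. In PERK-KO cells the limits of DLAT and DLD overlapped, so their order is not resolved.

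The PDH kinases switch the complex off by phosphorylating E1α. PDK1 had an FPKM of 10.2 (9.49 to 10.9) in WT and 13.5 (12.7 to 14.4) in PERK-KO cells, giving a ratio of 1.33 (range 1.17 to 1.52) with separate limits. PDK3 had 20.7 (19.4 to 22.1) and 23.8 (22.1 to 25.4), with limits that were only just separate. PDK2 had 29.8 (27.7 to 32.0) and 27.7 (25.4 to 30.0), which overlapped, and its locus shares 61 bases with SAMD14, at 2.09 and 1.99 FPKM. PDK4, known as the starvation-induced form, was close to the 1 FPKM limit in both samples, with 1.03 (0.789 to 1.28) and 0.647 (0.441 to 0.852). The ratio of 0.626 for PDK4 had an allowed range of 0.345 to 1.08, so a difference was not detectable at this depth. PDK2 was the most abundant kinase transcript, with 48.3% (44.8% to 51.9%) of the summed PDK FPKM in WT and 42.2% (38.4% to 46.0%) in PERK-KO cells. The share of PDK1 was 16.5% (14.6% to 18.5%) and 20.6% (18.4% to 23.1%), and the summed level of the 4 genes differed 1.06-fold.

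The phosphatases that reactivate the complex differed little. PDP1 had 4.95 (4.44 to 5.47) in WT and 5.23 (4.67 to 5.80) in PERK-KO cells, and PDP2 had 8.91 (8.40 to 9.42) and 8.18 (7.65 to 8.70). The limits of both overlapped. PDPR, the regulatory subunit that restrains the phosphatase and is not a member, had 3.75 (3.44 to 4.06) and 5.90 (5.49 to 6.32), giving a ratio of 1.57 with separate limits. Its transcript is long (8549 bases), and relative to genes of that length its log2 ratio was 0.34 in place of 0.65, which is not past 1.5-fold.

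In the stretch of the cycle from citrate to 2-oxoglutarate, 3 of 5 members were higher in PERK-KO cells with separate limits and none was lower with separate limits, where 26.1% and 18.7% of all rows were. Citrate synthase (CS), which joins acetyl-CoA to oxaloacetate, had an FPKM of 136 (133 to 139) in WT and 156 (152 to 159) in PERK-KO cells, giving a ratio of 1.15 (range 1.09 to 1.20).

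The NAD-dependent isocitrate dehydrogenase is built from α, β and γ subunits. Its catalytic α subunit IDH3A had 29.0 (27.5 to 30.5) in WT and 35.8 (34.0 to 37.6) in PERK-KO cells, giving a ratio of 1.23 (range 1.11 to 1.37). The γ subunit IDH3G had 42.8 (39.9 to 45.6) and 51.6 (48.1 to 55.1), giving a ratio of 1.21, and shares 349 bases at its 5′ end with SSR4, which stood at 292 and 293 FPKM. The β subunit IDH3B had 92.7 (87.6 to 97.7) and 87.9 (83.0 to 92.8), which overlapped. IDH3A was the least abundant of the subunits in both samples, at 17.6% of their sum in WT and 20.4% in PERK-KO cells, whereas IDH3B made up 56.3% and 50.1%. IDH2, the NADP-dependent mitochondrial enzyme, had 50.2 (47.6 to 52.7) and 54.4 (51.6 to 57.2), with overlapping limits.

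Among the genes for the steps from 2-oxoglutarate to succinate, both a higher and a lower member had separate limits within the same enzyme. Succinyl-CoA ligase pairs the α subunit SUCLG1 with a β subunit, SUCLG2 in the GDP-forming and SUCLA2 in the ADP-forming enzyme. SUCLG1 was lower, with an FPKM of 52.4 (49.5 to 55.3) in WT and 45.7 (42.8 to 48.6) in PERK-KO cells, giving a ratio of 0.872 (range 0.775 to 0.982). SUCLG2 was higher, with 17.1 (15.6 to 18.6) and 23.5 (21.7 to 25.4), giving a ratio of 1.38 (range 1.17 to 1.62). SUCLA2 had 16.8 (15.5 to 18.2) and 17.6 (16.1 to 19.0), with overlapping limits. The β subunits were thus nearly even in WT cells, where SUCLG2 made up 50.4% (46.3% to 54.4%) of their sum, and SUCLG2 made up 57.3% (53.3% to 61.2%) in PERK-KO cells.

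The oxoglutarate dehydrogenase complex was similar in both samples apart from its minor E1 form. OGDH, the E1 of most tissues, had 24.2 (22.7 to 25.7) in WT and 23.3 (21.8 to 24.8) in PERK-KO cells, and DLST, the E2 succinyltransferase, had 27.5 (25.8 to 29.1) and 30.3 (28.4 to 32.1). The limits of both overlapped. OGDHL, an E1 paralogue known mainly from brain (chromosome 10, 50942687 to 50970425), had 2.54 (2.13 to 2.95) and 3.96 (3.42 to 4.50), giving a ratio of 1.56 with a wide allowed range of 1.16 to 2.11. It made up 9.52% of the E1 transcripts in WT and 14.5% in PERK-KO cells.

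Fumarate hydratase (FH) had an FPKM of 19.1 (17.6 to 20.6) in WT and 23.1 (21.3 to 24.9) in PERK-KO cells, giving a ratio of 1.21 (range 1.04 to 1.42). The malate dehydrogenases, which interconvert malate and oxaloacetate and carry the malate-aspartate shuttle with the aspartate aminotransferases, were both lower in PERK-KO cells with separate limits. MDH2, the mitochondrial form and the most abundant member, had 310.2 (303 to 318) and 269.9 (262 to 277), giving a ratio of 0.870 (range 0.826 to 0.917). MDH1, the cytosolic form, had 154 (147 to 161) and 119 (113 to 125), giving a ratio of 0.772 (range 0.701 to 0.850). The first 125 bases of the MDH1 locus are shared with WDPCP, which had 1.55 and 2.02 FPKM. MDH2 made up 66.8% (65.2% to 68.4%) of the pair in WT and 69.4% (67.7% to 71.0%) in PERK-KO cells.

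Enzymes that refill the cycle or withdraw from it included the member with the largest ratio among those with separate limits. PCK2 converts mitochondrial oxaloacetate to phosphoenolpyruvate and is a known target of ATF4. It lies on chromosome 14 from 24563483 to 24573339 and had an FPKM of 8.58 (7.58 to 9.59) in WT and 14.6 (13.2 to 16.0) in PERK-KO cells, giving a ratio of 1.70 (range 1.38 to 2.12). PC, the pyruvate carboxylase that makes oxaloacetate from pyruvate, had 10.01 (9.18 to 10.8) and 14.0 (12.95 to 15.1), giving a ratio of 1.40 (range 1.19 to 1.64). The whole LRFN4 locus (3071 bases) lies within that of PC, and LRFN4 was lower in PERK-KO cells, with 56.6 and 43.2 FPKM. PCK1, the cytosolic counterpart of PCK2 and not a member, had 2.39 (1.96 to 2.83) in WT and 1.44 (1.07 to 1.81) in PERK-KO cells, giving a ratio of 0.602.

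The malic enzymes turn malate into pyruvate. ME2, the mitochondrial NAD-linked form, had 14.6 (13.6 to 15.6) in WT and 13.8 (12.8 to 14.9) in PERK-KO cells, and the cytosolic ME1 had 11.1 (10.3 to 11.9) and 12.5 (11.6 to 13.4), with overlapping limits in each case. ME3 was nearly absent from both samples, at 0.131 (0 to 0.277) and 0.0600 (0 to 0.188), with lower limits of 0.

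Glutamate enters the cycle through transamination or through glutamate dehydrogenase. GOT2, the mitochondrial aspartate aminotransferase, had 65.8 (63.4 to 68.2) in WT and 74.0 (71.3 to 76.8) in PERK-KO cells, giving a ratio of 1.13 (range 1.05 to 1.21), while the limits of the cytosolic GOT1 overlapped at 31.4 (29.6 to 33.2) and 30.3 (28.4 to 32.2). GLUD1, the main glutamate dehydrogenase, had 54.0 (52.2 to 55.8) and 54.8 (52.9 to 56.8), and its ratio of 1.02 had a range of 0.948 to 1.09. GLUD2, its intronless copy on the X chromosome, had 11.1 (10.1 to 12.1) and 12.6 (11.5 to 13.8). The coding sequences of GLUD1 and GLUD2 are identical at 97.6% of their 1674 bases, so how reads were divided between them is uncertain. Coding identity was lower in every other pair of related members, at 55.6% for MDH1 with MDH2 and up to 76.7% for OGDH with OGDHL over the aligned bases.

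**Figure D3:**
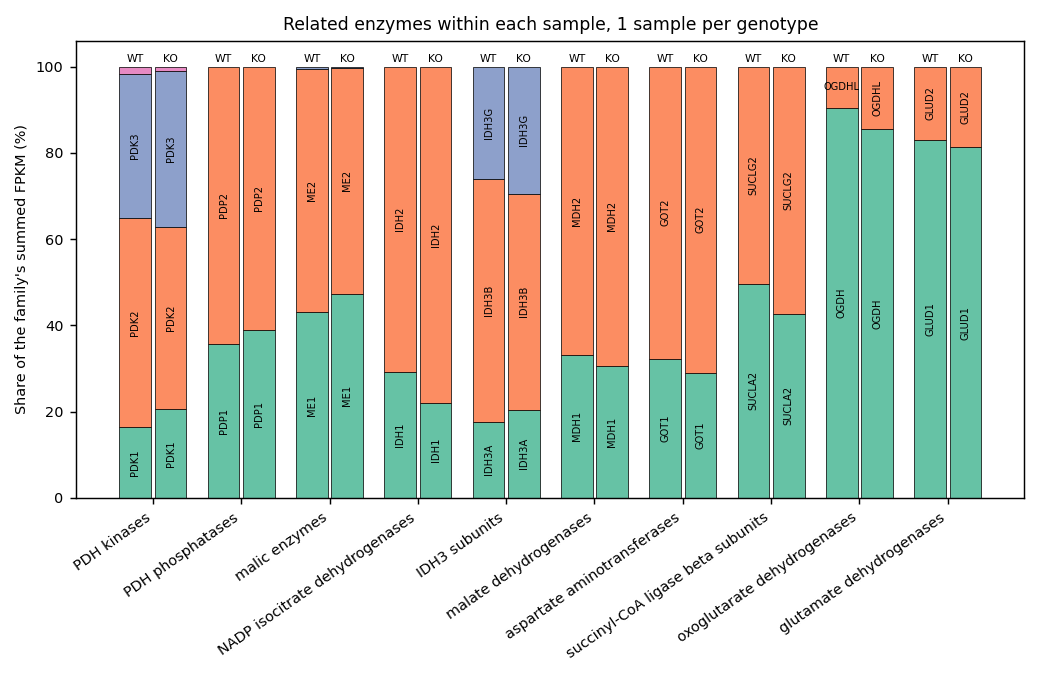
Share of each related gene in the summed FPKM of its enzyme family (percent), with WT on the left and PERK-KO (KO) on the right of each pair of stacked bars, from 1 sample per genotype. IDH1 takes 29.3% of the NADP-dependent pair in WT and 22.1% in PERK-KO cells, SUCLG2 takes 50.4% and 57.3% of its pair, and the thin unlabelled tops are PDK4 and ME3.

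The 6 cytosolic members did not share a direction. IDH1, which makes NADPH and 2-oxoglutarate from isocitrate in the cytosol, was lower, with an FPKM of 20.8 (19.4 to 22.2) in WT and 15.4 (14.1 to 16.7) in PERK-KO cells, giving a ratio of 0.743 (range 0.637 to 0.864). ACLY, which splits exported citrate into acetyl-CoA and oxaloacetate for lipid synthesis, was higher, with 66.0 (63.3 to 68.6) and 85.1 (81.6 to 88.5), giving a ratio of 1.29 (range 1.19 to 1.40). ACO1, the cytosolic aconitase that also acts as iron regulatory protein, had 14.2 (13.3 to 15.2) and 14.5 (13.5 to 15.5). With MDH1, 2 cytosolic members were lower and 1 was higher with separate limits. Among the 30 mitochondrial members at 1 FPKM or more, 13 were higher and 2 lower with separate limits. For all rows these shares were 26.1% and 18.7%. Without regard to the limits, 21 of the 30 were higher and 9 lower, where 7827 of all 14594 rows were higher and 6767 lower. The median log2 ratio was 0.14 for the mitochondrial and -0.01 for the cytosolic members, and the difference was not tested. The share of IDH1 in the NADP-dependent pair with IDH2 was 29.3% (26.9% to 31.8%) in WT and 22.1% (19.8% to 24.5%) in PERK-KO cells.

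Ratios were higher for longer transcripts across the tables. Over 12452 rows with an annotated length, the Spearman correlation of length with the log2 ratio was 0.447, a description of this pair of libraries, and over the 36 members it was 0.130. Short members therefore stand beside a lower background. At the length of MDH1 (1296 bases) the running median of all rows was -0.23, so that MDH1 lay 0.15 below it on the log2 scale, and SUCLG1 (1270 bases) lay 0.06 above its own background of -0.25. IDH1 (2318 bases) lay 0.39 below and PCK2 (2179 bases) 0.81 above genes of their length. OGDHL lay 0.54 above and was no longer past 1.5-fold. PDK1, whose annotated transcript of 14072 bases is the longest among the members, lay 0.05 above its background of 0.36. The annotation behind the FPKM is not given, so its transcripts may differ in length from those used here. That limits the adjustment. In total 24 of the 36 members lay above the median of genes of their length, with a median of 0.10, and 6 members (PDP1, IDH3B, SUCLG1, GLUD1, ACO1 and GOT1) were on the other side of 0 after this adjustment. Over all rows with a length the adjusted median was 0, as the subtraction centres it. How many of those rows changed side was not counted.

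**Figure D4:**
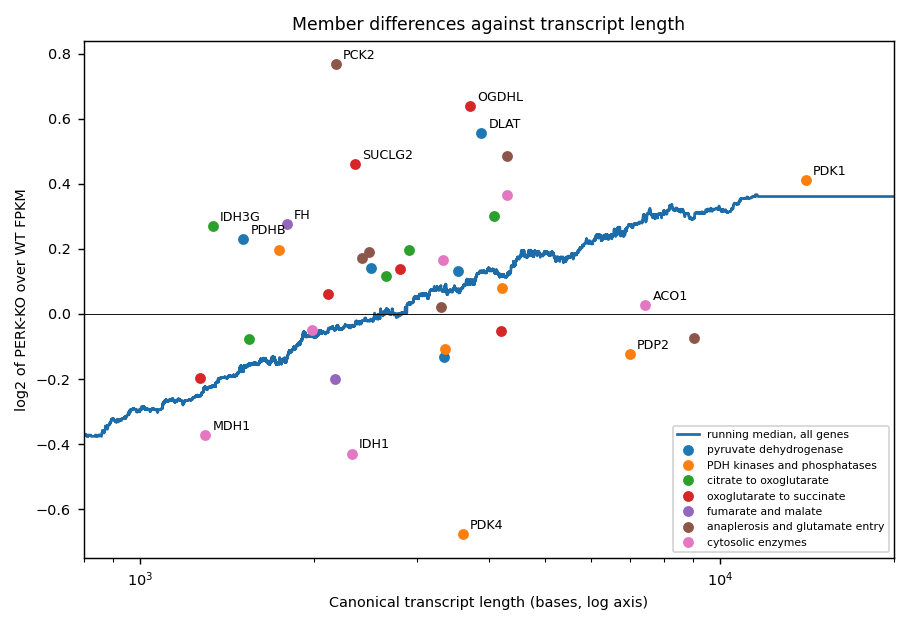
Log2 of the PERK-KO over the WT FPKM against canonical transcript length (bases, log axis) for the 36 members, coloured by step; the line is the running median of all rows at 1 FPKM or more, over 501 rows. The line climbs from below 0 for short transcripts to above 0 for long ones, and PCK2, OGDHL, DLAT and SUCLG2 lie above it while IDH1 and PDK4 lie below.

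Genes that work next to the members are given here as counts and values. Succinate dehydrogenase joins the cycle to the respiratory chain, and together with its assembly factors it was represented by 8 genes, of which 6 were lower and none was higher in PERK-KO cells with separate limits (median log2 ratio -0.28), against 18.7% of all rows lower and 26.1% higher in that way. Apart from SDHA (2693 bases), the 6 with an annotated length are short. The median over these 6, SDHA included, was -0.03 after subtraction of the median of genes of their length. The genes without a length, which had lower values in PERK-KO cells, are not in that median. SDHA, the flavoprotein subunit, had an FPKM of 126 (122 to 129) in WT and 87.7 (84.7 to 90.7) in PERK-KO cells, giving a ratio of 0.698. SDHB had 114 (109 to 119) and 98.4 (93.5 to 103), SDHC had 58.4 (55.4 to 61.4) and 50.5 (47.6 to 53.3), and the limits of SDHD overlapped at 53.5 (50.5 to 56.6) and 59.4 (56.0 to 62.8). Only C6orf57, now SDHAF4, was more than 1.5-fold lower, at 27.0 and 17.3 (12.5% of the 8, where 7.54% of all rows were). Genes of similar length to SDHB and SDHC had medians of -0.29 and -0.23, so that both lay above 0 after adjustment (0.08 and 0.02), as did SDHD (0.37), whereas SDHA lay at -0.52.

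Carriers of pyruvate and dicarboxylates were divided, with 3 higher and 3 lower with separate limits and 3 overlapping among 9 genes. None passed 1.5-fold. Of all rows, 26.1% were higher and 18.7% lower with separate limits. The subunits of the mitochondrial pyruvate carrier had overlapping limits, MPC1 with 32.7 (29.5 to 35.8) and 34.2 (30.8 to 37.5) and MPC2 with 27.1 (25.2 to 29.1) and 25.3 (23.4 to 27.3). Of the 7 genes for lipoic acid attachment and PDH phosphatase regulation, 1 was higher (PDPR) and 2 were lower with separate limits. These counts stand beside the same shares of all rows. NDUFAB1, the acyl carrier protein used in lipoic acid synthesis and a complex I subunit, had 231 (221 to 241) in WT and 147 (139 to 156) in PERK-KO cells, giving a ratio of 0.638. It is short (665 bases), and its log2 ratio of -0.65 became -0.24 after the length adjustment, no longer past 1.5-fold.

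All 6 genes for glutamine and alanine conversion that were reported here and reached 1 FPKM had separate limits, 5 higher and 1 lower in PERK-KO cells, where 26.1% of all rows were higher and 18.7% lower, and the median log2 ratio was 0.67. GLS2, the liver-type glutaminase that makes glutamate from glutamine, was the lower one, with 3.42 (2.86 to 3.97) in WT and 2.195 (1.73 to 2.66) in PERK-KO cells. GPT2, which makes 2-oxoglutarate and alanine from glutamate and pyruvate in mitochondria, had 8.30 (7.55 to 9.05) and 16.3 (15.1 to 17.5), giving a ratio of 1.96. PSAT1, which makes 2-oxoglutarate during serine synthesis, had 40.4 (38.0 to 42.9) and 82.7 (78.2 to 87.2), and ASNS, the asparagine synthetase, had 32.5 (30.5 to 34.6) and 78.7 (74.8 to 82.7). Among 8 genes of lactate and acetate entry, 1 was higher and 2 lower with separate limits, against 26.1% and 18.7% of all rows. LDHA had 655 (630.0 to 680.2) and 699 (672 to 727), with overlapping limits, and LDHB had 1154 (1104 to 1203) and 824 (788 to 861), giving a ratio of 0.715.

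PCK2, GPT2, PSAT1 and ASNS are all known to respond to ATF4. In a list of 14 ATF4 target genes, which holds PSAT1 and ASNS but not PCK2 or GPT2, 7 were past 1.5-fold and higher with separate limits in PERK-KO cells, where 7.9% of all rows were, and none was lower with separate limits, where 18.7% of all rows were. Besides PSAT1 and ASNS, these were MTHFD2 (47.6 and 89.2 FPKM), CHAC1 (3.44 and 7.26), SESN2 (18.2 and 30.5), PHGDH (97.7 and 152) and ATF3 (37.2 and 57.7). DDIT3, which encodes CHOP and was singled out after its values were seen, had 58.2 (53.7 to 62.8) in WT and 66.2 (61.1 to 71.4) in PERK-KO cells, with overlapping limits. The median log2 ratio of the list was 0.48, and the limits of 5 of its genes overlapped, DDIT3 among them. The list was chosen with earlier results of these data known, so its counts are only a description. PSAT1 and ASNS are also in the counts for glutamine and alanine conversion. Whether ATF4 had a part in these differences was not tested, and it cannot be told apart from the difference between the lines.

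**Figure D5:**
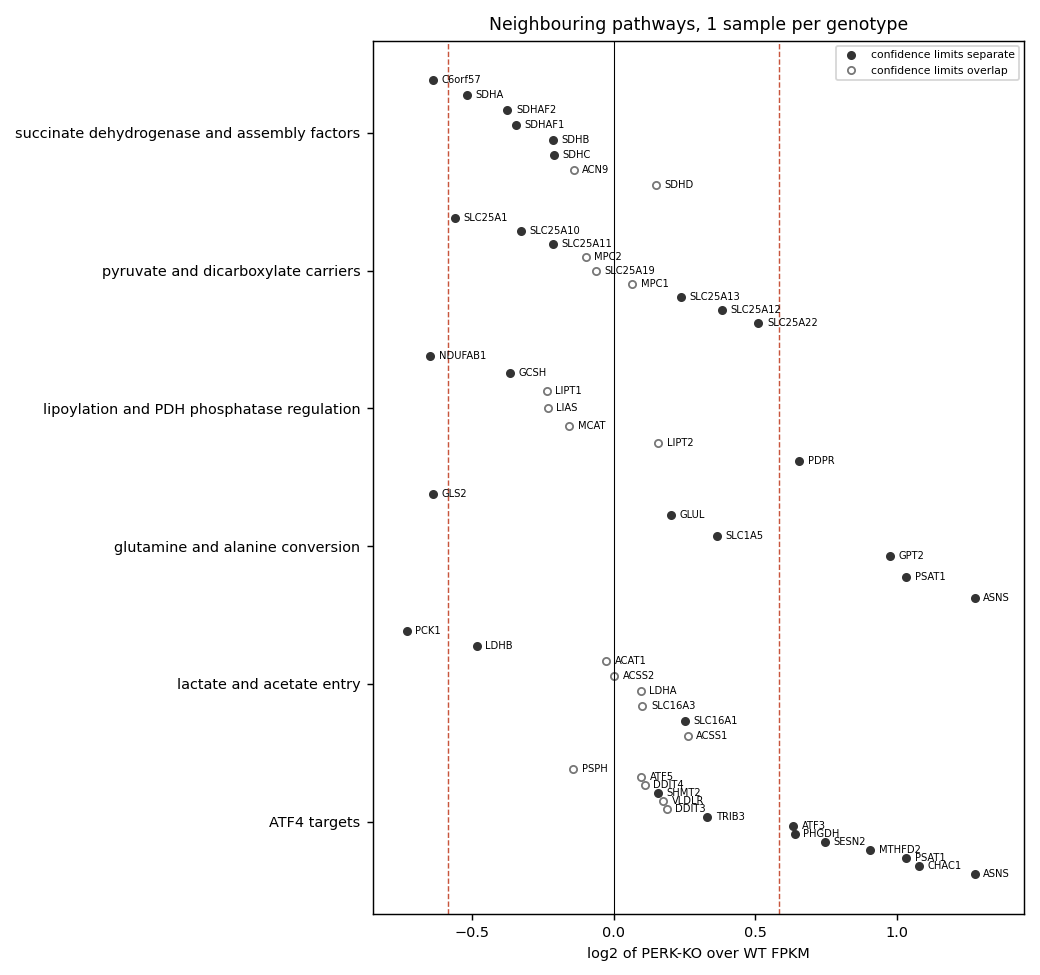
Log2 of the PERK-KO over the WT FPKM for genes of neighbouring pathways at 1 FPKM or more, from 1 sample per genotype; filled points have separate confidence limits, open points overlapping ones, and dashed lines mark 1.5-fold. The succinate dehydrogenase genes lie mostly left of 0, while ASNS (1.27), PSAT1 (1.03) and GPT2 (0.97) lie far to the right.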

How the data were processed

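Polyadenylated RNA of 1 WT and 1 PERK-KO HEK293 sample was sequenced. The authors mapped reads to GRCh37/hg19 with TopHat2 (2.0.13 in the submitters' processing notes) and computed FPKM with Cufflinks (2.2.1) and Cuffdiff. The deposited values are FPKM with confidence limits, although the tables are named for RPKM, and give no counts. The gene annotation is not given in the sources used here.

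Ratios were PERK-KO over WT without a pseudocount, for rows of 1 FPKM or more in either sample. A 1.5-fold limit was used, close to that of the study. Allowed ranges divide the limits of one sample by the opposite limits of the other. Loci are 1-based. Transcript lengths and coding sequences are canonical GENCODE 44 transcripts on GRCh37, matched by symbol and position for 85.3% of the rows, and the running median used 501 rows. Promoters are from RefSeq (GRCh38.p14), with their letters located in GRCh37. No strand-specific counting is stated, so reads of overlapping genes on opposite strands cannot be told apart. All members were described; neighbouring genes were named when past 1.5-fold with separate limits or when listed as partners of a member (subunits of succinate dehydrogenase and of the pyruvate carrier, LDHA and LDHB), DDIT3 being the exception, and the remaining ones appear as counts. Some genes of the neighbouring lists are not reported here and are in no count of those lists. The members and lists were chosen with earlier results of these data known. Calculations used pandas 2.3.3, scipy 1.17.1 and numpy 2.4.6 under Python 3.11.15, with figures from matplotlib 3.10.9, and were tested on simulated data. The simulation used only rows of 10 FPKM or more, changes larger than that of any member, and noise within 1 library. It does not cover smaller differences, members at lower levels or variation between cultures.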

Additional observations from a re-analysis of the deposited data

How the results depend on the processing

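No paired analysis was possible because each genotype has 1 sample, and for the same reason no replicate could be left out. The number of members past 1.5-fold and lower, 1 (PDK4), was 2 when any FPKM above 0 in both samples was accepted, which added ME3, and 2 at 1.3-fold. It was 0 with an FPKM of at least 5, with a pseudocount of 1, at 2-fold, or when limits also had to be separate. The number past 1.5-fold and higher, 2 (PCK2 and OGDHL), was 1 with an FPKM of at least 5, with a pseudocount of 1 and with the running median over transcript length subtracted, 6 at 1.3-fold and 0 at 2-fold. The remaining alternatives kept these counts. Of all rows at 5 FPKM or more, 8.42% were higher and 6.78% lower past 1.5-fold. When limits also had to be separate, 7.9% and 5.39% of all rows at 1 FPKM or more were. The 14 members higher and 4 lower with separate limits were 13 and 5 when the values were rescaled to a median log2 ratio of 0 or by the 75th percentile. Shares of all rows were not computed for the other settings, so counts under those settings have no background here. The median log2 ratio of 0.14 ranged from 0.10 to 0.14 over all alternatives. Single members stayed within the range their limits allow in 279 of 286 recalculations, but many of these could hardly move a value. Changing the FPKM filter or summing rows of the same name left each member's ratio as it was. Rescaling shifted every log2 ratio by only 0.04 or 0.03, against a median half-range of 0.19. The 7 recalculations outside the range came from subtracting the length median in the 36 members. That subtraction raised IDH3G, SUCLG1 and MDH1 and lowered PDK1, PDP2, ME2 and ACO1. No member past 1.5-fold changed direction. Depth limits what can be said of PDK4 and ME3, which lie near or below 1 FPKM.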
